A study of Sus scrofa with 18 samples.

Results

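The comparison covers porcine 4-cells derived from vitrified cloned zygotes against 4-cells derived from fresh cloned zygotes, with 3 libraries in each group, 6 of the 18 libraries of the series. All genes of the deposited 4-cell table were taken, 24358 in number, and 8769 of them were tested. The embryos of both groups were made by somatic cell nuclear transfer, in which the chromosomes of an oocyte are removed and a donor cell is introduced, here cells from the ear tissue of Diannan miniature pigs. After chemical activation the vitrified group was cooled to a glass in concentrated cryoprotectant, warmed and cultured in PZM-3 medium, whereas the fresh group was cultured without cooling. Each 4-cell library pooled 2 embryos collected 48 h after activation, and the other 12 libraries held vitrified and fresh 2-cells (24 h) and blastocysts (144 h). The study describes its replicates as biological. Since embryos were taken for having reached a stage and were pooled, the libraries describe surviving embryos and not single ones.

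A newly formed pig embryo runs on transcripts that the oocyte stored during its growth. These maternal transcripts are degraded over the first cleavages, and transcription from the embryonic genome takes over in a major wave that in the pig falls at about the 4-cell stage. At this stage embryos of the same age can therefore stand at different points of the handover, and in cloned embryos the genome that is activated is that of a somatic nucleus. Vitrification exposes the zygote to osmotic shifts, cryoprotectant and rapid temperature change before any of this begins.

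Expression was measured as FPKM, the sequenced fragments assigned to a gene, scaled by the length of its exons and by library size. The lowest value listed is 0.0001 FPKM, described here as listed at 0. Differences are vitrified minus fresh on the scale of log2(FPKM + 1), which understates the change of genes near or under 1 FPKM. FPKM values are shares of a library, so fewer cells and less RNA per cell cannot be told apart. The oocyte's own transcripts marked the libraries as early embryos, but since 2-cells hold them too they cannot tell the stage. Of 11 maternal marker genes found, 10 had at least 10 FPKM in all 6 libraries, with sums of 2980 to 3740 FPKM in fresh and 2090 to 3230 FPKM in vitrified libraries. Short sets of markers of trophectoderm (4 genes found), hypoblast (4), donor fibroblasts (6), cumulus cells (5) and blood (3) each summed to at most 7.95 FPKM in any library. CDX2, SOX17, FOXL2 and HBB, which define 4 of these cell types, were at or under 0.291 FPKM throughout. Longer lists of such genes held some at higher levels, among them S100A4 of the fibroblast list at 44.8 to 157 FPKM, TFAP2C of the trophectoderm list at 4.32 to 175 FPKM, and FST and VCAN of the cumulus list at up to 15.7 and 15.8 FPKM, and none of these 4 was called. Between 8230 and 8841 genes reached 1 FPKM per library. Vitrified replicate 3 stood apart, with a mean correlation of 0.763 with the other 5 libraries across genes, against 0.869 to 0.892 for these 5, and results that rest on it are given with and without it.

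In vitrified 4-cells 87 genes were called higher and 216 lower, which is 0.992% and 2.46% of the 8769 genes tested (3.46% together). A gene was called when limma gave an unadjusted p under 0.05 and a log2 fold change beyond 1 in either direction. An unadjusted p under 0.05 (limma) was reached by 326 genes (3.72%). That share is below the 0.05 which the threshold admits where no gene differs. After Benjamini-Hochberg adjustment over all genes tested, 1 gene stayed under 0.05, (0.0114%), and every other called gene had an adjusted p of 0.948 from limma. The calls below are thus described as such, with the values of every library beside them. The median of all genes was -0.16, and when the libraries were scaled to remove this shift the split became 138 higher and 140 lower (quantile normalization) or 144 higher and 136 lower (median ratio). When replicates of the same number were treated as blocks, 148 higher and 338 lower genes were called. The total of 303 calls became 178 without fresh replicate 1, 171 without fresh replicate 2 and 739 without vitrified replicate 2.

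**Figure D1:**
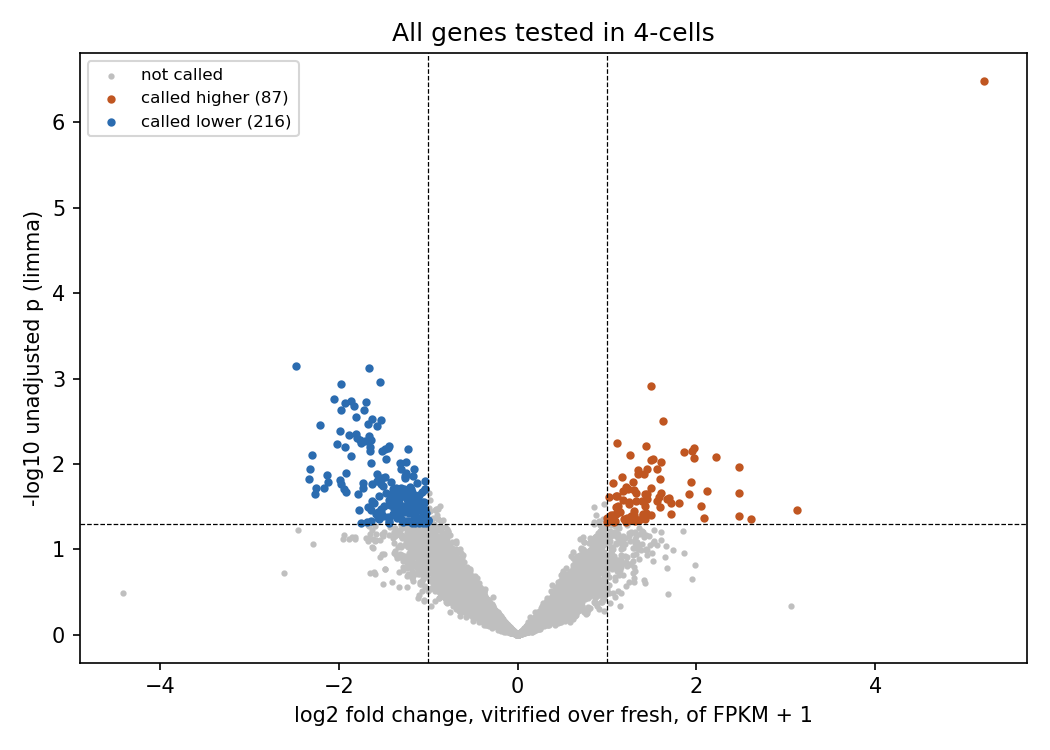
Each point is 1 of 8769 genes, with the log2 fold change of FPKM + 1 (vitrified over fresh 4-cells, 3 libraries each) on the x axis and -log10 of the unadjusted limma p on the y axis, and dashed lines mark the thresholds. The 87 genes called higher and 216 called lower form broad flanks, and 1 gene, listed at 0 in all fresh libraries, stands far from the rest.

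The gene with an adjusted p under 0.05 was ENSSSCG00000036186, which the files describe as gamma-crystallin F, a structural protein of the eye lens in mammals. It was listed at 0 in all 3 fresh 4-cell libraries and at 36.6, 40.9 and 32.0 FPKM in vitrified replicates 1, 2 and 3 (adjusted p = 0.00286, limma). No other tested gene was listed at 0 in one group and reached 10 FPKM in every library of the other. At the 2-cell stage the same gene was at 0.481, 19.6 and 10.6 FPKM in the fresh libraries and at 0.552, 9.12 and 3.55 FPKM in the vitrified ones, so that its level varied within both groups there. In blastocysts it was listed at 0 in 5 of 6 libraries and at 2.28 FPKM in fresh replicate 2. Gamma-crystallin genes are close copies of each other, and how reads were shared among them is not given in the sources used here. Without fresh replicate 1 or without fresh replicate 2, no gene kept an adjusted p under 0.05 (limma).

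To see what held in each vitrified library, genes were counted whose 3 vitrified values all lay on one side of the 3 fresh values. This was so for 246 genes on the higher side (2.81% of those tested) and 731 on the lower side (8.34%), 11.1% together. With 3 libraries in each group, many genes separate in this way even where the groups do not differ. The count by itself is therefore no sign of an effect of vitrification. A gap of more than 1 on the log2 scale between the nearest libraries of the groups was found for 2 genes on the higher and 18 on the lower side (0.0228% and 0.205%). Some of these low values had wide margins in well measured genes. CDK5, a kinase best known from neurons, was at 99.7, 117 and 115 FPKM in fresh and at 30.2, 44.0 and 26.9 FPKM in vitrified libraries (log2 fold change -1.72, SE 0.41). ZNF583, a zinc finger protein, was at 22.2, 28.2 and 23.1 FPKM in fresh and at 7.62, 5.99 and 2.79 FPKM in vitrified 4-cells (-2.05, SE 0.47). In both genes the fresh libraries lay close together and every vitrified library was under all of them by more than a doubling of FPKM + 1.

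Further genes with a symbol had such gaps at lower levels. C1orf105, of unknown function, was at 8.33, 10.8 and 9.47 FPKM in fresh and at 2.11, 2.07 and 0.999 FPKM in vitrified libraries (-1.97, SE 0.43). RNF170, a ubiquitin ligase of the endoplasmic reticulum, was at 11.2, 11 and 9.43 against 2.90, 3.75 and 0.231 FPKM (-2.02, SE 0.57). CREG1, a glycoprotein of the endosome and lysosome, was at 13.4, 11.7 and 10.4 against 0.528, 4.09 and 3.78 FPKM (-1.93, SE 0.55). These 3 genes were tight among fresh libraries, and the lowest vitrified library was replicate 3 for C1orf105 and RNF170 but replicate 1 for CREG1. LITAF, a membrane protein of late endosomes, was at 5.3, 4.33 and 3.77 against 1.09, 0.775 and 0.794 FPKM (-1.53, SE 0.39). AFF2, a nuclear protein of the AF4 and FMR2 family, was at 8.31, 7.54 and 6.57 against 2.62, 2.38 and 2.17 FPKM (-1.32, SE 0.41). XPNPEP3, an aminopeptidase of mitochondria, was at 7.98, 2.93 and 4.87 against 0.204, 0.961 and 0.565 FPKM (-1.94, SE 0.45). In LITAF and AFF2 the vitrified libraries were as close to each other as the fresh ones, whereas XPNPEP3 varied more within groups. LYPD6B was at 1.94, 2.79 and 1.88 FPKM in fresh libraries and listed at 0 in all 3 vitrified ones.

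Both gene identifiers that the files describe as patatin like phospholipase domain containing 4, a lipid hydrolase, were on this lower side too. ENSSSCG00000012100 was at 206, 243 and 304 FPKM in fresh and at 99.6, 52.9 and 87.3 FPKM in vitrified libraries (-1.67, SE 0.43). ENSSSCG00000038027 was at 58.7, 56.0 and 60.4 against 24.5, 23.6 and 14.2 FPKM (-1.48, SE 0.43). Both showed full separation of the groups, but with 1 description for 2 identifiers their reads may be shared. CDK5, CREG1, LITAF, AFF2, LYPD6B and these phospholipase genes were chosen after their values were seen.

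Of the 303 called genes, 58 (0.661% of those tested) were called whichever of the 6 libraries was left out, 14 of them higher (0.160%) and 44 lower (0.502%). They include all the genes just named. Levels in the fresh embryos of the other stages give these sets a context. Of the 216 genes called lower, 178 (82.4%) had a higher mean in fresh 2-cells than in fresh blastocysts, against 68.3% of all genes tested, and of the 44 it was 33 (75%). Of the 87 called higher, 38 (43.7%) had the higher mean in 2-cells, and 7 of the 14 (50%). Genes called lower were thus more often ones that run down between the 2-cell stage and the blastocyst, as a count and with no test. The excess over all genes was smaller in the 44 than in the 216. For 150 of the 216 (69.4%, beside 51.3% of all genes tested) vitrified replicate 3 was the lowest vitrified library. The share was not counted without that library.

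**Figure D2:**
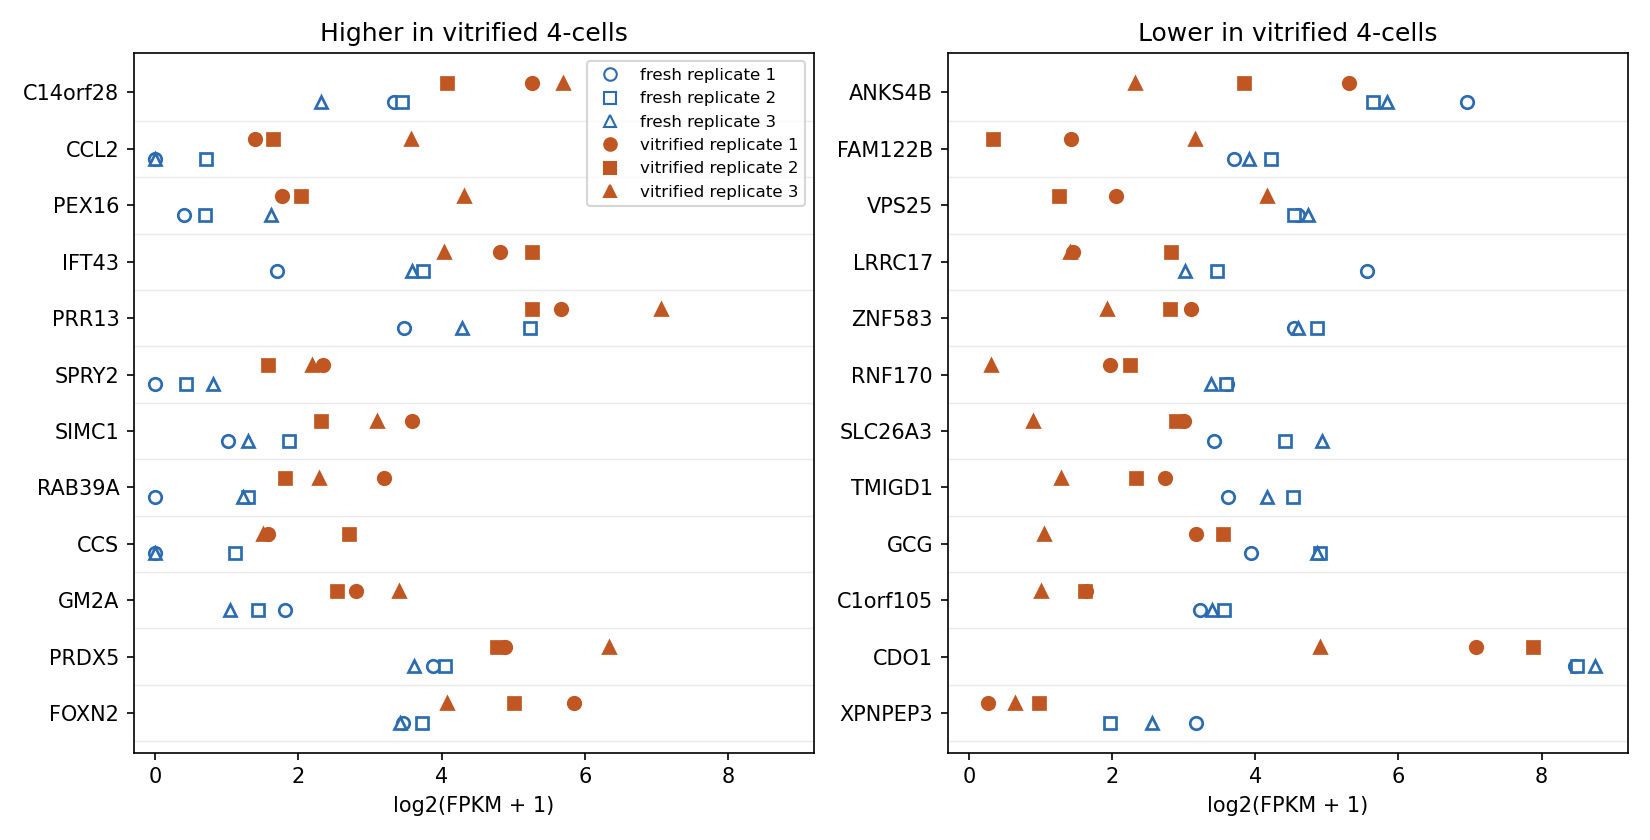
Expression in log2(FPKM + 1) of the 12 called genes with the largest increase (left) and the 12 with the largest decrease (right) among genes with a symbol and with no overlap of the groups, 1 point per library, open blue for fresh and filled orange for vitrified 4-cells. In each gene all 3 vitrified points lie on one side of the 3 fresh points, and in 6 of the 12 genes on the left and 9 of the 12 on the right vitrified replicate 3 (triangle) is the vitrified library farthest from the fresh ones.

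Signalling genes were among those called higher. SPRY2, an antagonist of receptor tyrosine kinase signalling that growth factors induce, was listed at 0 in fresh replicate 1 and at 0.346 and 0.744 FPKM in the other two, against 4.09, 1.99 and 3.58 FPKM in vitrified libraries (log2 fold change 1.63, SE 0.41). CCL2, a chemokine that attracts monocytes, was listed at 0 in fresh replicates 1 and 3 and was at 0.629 FPKM in replicate 2, against 1.63, 2.12 and 10.9 FPKM (1.97, SE 0.59). Neither gene overlapped between the groups, and in CCL2 most of the difference lay in vitrified replicate 3. DUSP5, a nuclear phosphatase that inactivates ERK, was listed at 0 in fresh replicate 1 and was at 1.22 and 0.334 FPKM in the others, against 2.15, 1.83 and 3.89 FPKM (1.29, SE 0.44). The receptor LIFR, through which leukemia inhibitory factor acts, was lower, at 7.08, 3.13 and 4.59 against 2.30, 1.28 and 1.41 FPKM (-1.12, SE 0.44). SPRY2 and CCL2 were called whichever library was left out. The call of DUSP5 was lost without fresh replicate 1 or 3 or vitrified replicate 3, at 1.03, 1.24 and 1.05, and that of LIFR without fresh replicate 1 or 3 or vitrified replicate 2, at -0.87, -1.14 and -1.02, and under both scalings, at -0.97. Of the 20 tested genes of a MAP kinase feedback list, 2 were called higher and 1 lower, beside 0.992% and 2.46% of all genes tested, with a median of -0.07. Without vitrified replicate 3 these were 1 and 1, with a median of 0.17.

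Single genes of lysosomal breakdown, copper delivery and peroxide removal were called in both directions. GM2A, the lysosomal cofactor for the breakdown of ganglioside GM2, was at 2.51, 1.70 and 1.06 FPKM in fresh and at 6.01, 4.81 and 9.57 FPKM in vitrified libraries (1.49, SE 0.45). CCS, the chaperone that loads copper onto superoxide dismutase, was listed at 0 in fresh replicates 1 and 3 and was at 1.16 FPKM in replicate 2, against 1.98, 5.51 and 1.83 FPKM (1.55, SE 0.49). Both kept their calls whichever library was left out, and their groups did not overlap. PRDX5, a peroxidase of mitochondria and peroxisomes, was at 13.7, 15.5 and 11.2 against 28.5, 26.3 and 79.8 FPKM (1.49, SE 0.53). GPX3, a secreted glutathione peroxidase, was lower, at 169, 111 and 65.3 against 47.4, 45.4 and 40.1 FPKM (-1.26, SE 0.47). PRDX5 lost its call without fresh replicate 1 or 3 or vitrified replicate 3, at 1.5, 1.37 and 0.98, although its groups stayed apart, and GPX3 lost it without fresh replicate 1 or 2 or vitrified replicate 1, at -0.93, -1.23 and -1.31. Of 25 tested genes of oxidative stress defence 1 was called higher and 1 lower, beside 0.992% and 2.46% of all genes tested. Of 22 genes of zinc and copper handling it was again 1 each way. The lower one of the latter was SLC39A8, an importer of zinc and manganese, at 34.6, 46.3 and 48.0 against 14.8, 17.4 and 6.37 FPKM, and it too was called in each of the 6 fits with a library left out.

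The lists of stress and cell death genes gave 0 or 1 call each, beside 3.46% of all genes tested. DDIT3, the transcription factor CHOP of the unfolded protein response, was at 16.4, 17.8 and 14.0 FPKM in fresh and at 32.1, 28.9 and 98.4 FPKM in vitrified libraries (1.44, SE 0.54). Every vitrified library exceeded every fresh one, and vitrified replicate 3 was far above the other two. Its call was lost without any 1 of the fresh libraries, at 1.35 to 1.51, and without vitrified replicate 3, at 0.89. DDIT3 was the only call among 30 tested genes of the unfolded protein response, whose median was 0.21, and 0.05 without vitrified replicate 3. BCL2L12, a relative of BCL2, was at 0.153, 1.5 and 0.528 against 2.24, 1.49 and 3.42 FPKM (1.00, SE 0.44), and was the only call among 21 apoptosis regulators. Its groups overlapped. The call was lost with the replicate block, with library weights, at 0.60, with the mean level of the activation genes described below as a covariate, at 0.95, and without fresh replicate 1 or 3 or vitrified replicate 1 or 3, at 0.75 to 1.01. Among 29 heat shock proteins and 33 autophagy genes 0 were called by limma, and 0 had an unadjusted p under 0.05, and among 20 p53 targets 0 were called with 1 at an unadjusted p under 0.05. DRAM2, a lysosomal membrane protein that takes part in autophagy and was placed on the lysosome list, was lower, at 5.86, 6.78 and 9.74 against 1.07, 2.97 and 0.629 FPKM (-1.81, SE 0.48), in each of the 6 fits with a library left out.

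Other genes with large increases have varied roles. C14orf28, of unknown function, was at 9.11, 9.90 and 3.99 FPKM in fresh and at 37.3, 15.9 and 50.9 FPKM in vitrified libraries (1.98, SE 0.57). SIMC1, a protein that binds SUMO, was at 1.02, 2.64 and 1.46 against 11, 3.97 and 7.53 FPKM (1.60, SE 0.49). FOXN2, a forkhead transcription factor, was at 10, 12.2 and 9.66 against 56.9, 31.2 and 15.9 FPKM (1.45, SE 0.53). In FOXN2 the 3 fresh libraries were close together and vitrified replicate 3 was the lowest of its group, and its call was lost without any 1 fresh library, at 1.39 to 1.54, or without vitrified replicate 1, at 1.01. C14orf28 and SIMC1 were called in each of the 6 fits. PEX16, which inserts peroxisomal membrane proteins, IFT43, a subunit of the transport particle of cilia, PRR13 and the small GTPase RAB39A had log2 fold changes of 1.80, 1.70, 1.67 and 1.59 and were called in 3, 3, 3 and 4 of these fits. PEX16 was not called without fresh replicate 1 or 2 or vitrified replicate 3, IFT43 without fresh replicate 1 or vitrified replicate 1 or 2, PRR13 without fresh replicate 1 or 3 or vitrified replicate 3, and RAB39A without fresh or vitrified replicate 1. Without these libraries the changes were 1.00 to 1.70 for PEX16, 1.04 to 1.64 for IFT43, 1.14 to 1.65 for PRR13 and 1.17 to 1.21 for RAB39A.

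TMIGD1 and ANKS4B, genes of the epithelial cell surface, were lower. TMIGD1, an adhesion protein of the microvillus border, was at 11.3, 22.1 and 16.9 FPKM in fresh and at 5.64, 4.06 and 1.44 FPKM in vitrified 4-cells (-1.99, SE 0.53), and was called in each of the 6 fits. ANKS4B, a scaffold between the protocadherins of microvilli, was at 123, 49.0 and 56.5 against 38.5, 13.4 and 3.99 FPKM (-2.33, SE 0.74). It was not called without fresh replicate 1, at -1.92, or with library weights, at -1.04. Both fell into non-overlapping groups, with vitrified replicate 3 lowest. PLAC8 was lower in the same list, at 11.2, 3.99 and 1.56 against 1.69, 1.05 and 0.166 FPKM (-1.53, SE 0.61), with overlap of the groups, and was not called without fresh replicate 1 or 2 or vitrified replicate 2 or 3, at -0.94, -1.59, -1.60 and -1.20. These 3 were the calls among 23 tested genes of microvilli and the apical membrane, or 0 higher and 3 lower, beside 0.992% and 2.46% of all genes. The median of the list was -0.46 beside -0.16 for all genes, and without vitrified replicate 3, with 3 lower again, it was -0.18 beside -0.08. SLC26A3, the chloride and bicarbonate exchanger of the gut, was at 9.69, 20.3 and 29.4 against 7.02, 6.43 and 0.858 FPKM (-1.99, SE 0.67), and was lost without fresh replicate 3, at -1.65. GCG, which encodes glucagon and its related peptides, was at 14.4, 28.8 and 28.0 against 7.98, 10.7 and 1.06 FPKM (-1.98, SE 0.68), and was lost without fresh replicate 2 or 3, at -1.81 and -1.84.

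On the lists of lipid genes the calls were all lower. They were 4 of 24 tested in glycerophospholipid synthesis and turnover and 1 of 18 in ceramide metabolism. In lipid droplets and fatty acid oxidation they were 2 of 23, beside 2.46% of all genes tested. Over all genes 216 of the 303 calls were lower. GM2A, which also acts on a lipid but was placed on the lysosome list, was called higher. The medians of these lipid lists were -0.46, -0.13 and -0.31, beside -0.16 for all genes. Without vitrified replicate 3, 1 gene of each list was called lower, and the medians were -0.06, -0.14 and -0.10, beside -0.08 for all genes. AGPAT1, which makes phosphatidic acid, was at 9.22, 3.99 and 3.74 FPKM in fresh and at 0.211, 0.276 and 3.33 FPKM in vitrified libraries (-1.73, SE 0.59). PLA2G12A, a secreted phospholipase A2, was at 9.81, 7.44 and 6.88 against 2.80, 5.28 and 0 as listed (-1.64, SE 0.66). LYPLA1, which removes fatty acids from lysophospholipids and proteins, was at 3.64, 3.25 and 2.19 against 1.66, 0.790 and 0.215 FPKM (-1.15, SE 0.43). In none of these 3 genes did the groups overlap, though in AGPAT1 vitrified replicate 3 came close to the fresh libraries. CERS3, the ceramide synthase for very long fatty acids, was at 6.64, 17.5 and 14.3 against 3.99, 3.91 and 1.87 FPKM (-1.65, SE 0.51). ACSL5, which activates long-chain fatty acids, was at 9.29, 9.28 and 10 against 3.84, 4.94 and 1.35 FPKM (-1.37, SE 0.49). HADHB, a subunit of the mitochondrial enzyme of fatty acid oxidation, was at 25.4, 18.8 and 18.8 against 6.65, 15.8 and 3.57 FPKM (-1.38, SE 0.55). CDS1, which makes CDP-diacylglycerol and was named after its values were seen, was at 2.77, 2.88 and 3.97 against 2.34, 0.846 and 0.380 FPKM (-1.03, SE 0.45). The fresh values of ACSL5 were nearly equal, and vitrified replicate 3 was the lowest in CERS3, ACSL5, HADHB and CDS1. With a library left out, CDS1 was called only in the fit without vitrified replicate 1, at -0.75 to -1.10 in the other 5 fits. It was not called with the replicate block, under either scaling, at -0.92 and -0.93, or with the activation covariate, at -0.98. AGPAT1 was not called without fresh replicate 1 or vitrified replicate 1 or 2, at -1.37 to -1.45, and CERS3 without fresh replicate 2, at -1.39. ACSL5 was not called without fresh replicate 2 or 3 or vitrified replicate 3, at -1.39, -1.34 and -0.97. LYPLA1 was called in 2 of the 6 fits, all but those without fresh replicate 1 or 2 or vitrified replicate 2 or 3, at -0.87 to -1.14, PLA2G12A in 2, lost without any fresh library or vitrified replicate 3, at -0.88 to -1.73, and HADHB in 1, that without vitrified replicate 2.

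Further genes called lower had varied roles. APOOL, a subunit of the complex that shapes the cristae, was at 21.3, 14.3 and 15.6 FPKM in fresh and at 2.06, 7.45 and 3.35 FPKM in vitrified libraries (-1.88, SE 0.51). OMA1, a protease of the inner membrane, was at 9.68, 9.90 and 14.4 against 4.53, 6.79 and 2.76 FPKM (-1.16, SE 0.47). These were the only 2 calls among 28 tested genes of the mitochondrial inner membrane, beside 2.46% of all genes called lower. The median of the list was -0.16, as for all genes. Without vitrified replicate 3 it was 5 calls, all lower, and a median of -0.49. In that fit 256 of all 8769 genes were called lower, with a median of -0.08. APOOL was called in each of the 6 fits, OMA1 in that without vitrified replicate 2 alone, at -0.89 to -1.25 in the others, and under median ratio scaling OMA1 was at -0.98. CDO1, cysteine dioxygenase, which opens the path from cysteine to taurine, was at 352, 360 and 429 against 135, 234 and 29.0 FPKM (-1.94, SE 0.69), in each of the 6 fits. Although all vitrified values of CDO1 were lower, the span among them was wide, and without replicate 3 of both groups its change was -0.99. VPS25, a subunit of the ESCRT-II complex that sorts membrane proteins for breakdown, was at 23.3, 22.3 and 25.6 against 3.14, 1.40 and 17.0 FPKM (-2.13, SE 0.70). FAM122B was at 12, 17.7 and 14.0 against 1.68, 0.262 and 7.93 FPKM (-2.30, SE 0.68). In both genes vitrified replicate 3 was the library nearest to the fresh ones, and VPS25 was not called without vitrified replicate 2, at -1.52. LRRC17, a secreted protein with leucine-rich repeats, was at 46.4, 10 and 7.11 against 1.74, 6.09 and 1.67 FPKM (-2.12, SE 0.72), and was not called without fresh or vitrified replicate 1, at -1.34 and -1.90.

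Of the oocyte's own genes, 1 of 24 tested was called higher and 2 lower, beside 0.992% and 2.46% of all genes, with a median of -0.63. Without vitrified replicate 3 these were 1 and 1, with a median of -0.16, and with the activation covariate 1 and 5. ZP3, a glycoprotein of the zona pellucida, was at 44.7, 43.9 and 54.1 FPKM in fresh and at 21.5, 20.5 and 16.3 FPKM in vitrified 4-cells (-1.25, SE 0.41), with both groups tight. PABPN1L, a poly(A) binding protein that in the mouse takes part in the clearance of maternal transcripts, was higher, at 2.15, 3.20 and 2.63 against 7.55, 6.79 and 6.21 FPKM (1.11, SE 0.41). Both genes were thus separated by more than the spread of either group. Without fresh replicate 2 or 3 the call of ZP3 was lost, at -1.30 and -1.16, and that of PABPN1L was lost without any 1 fresh library or vitrified replicate 1, at 1.00 to 1.21. FIGLA, a transcription factor of the oocyte, was at 11.3, 4.23 and 8.60 against 1.09, 6.16 and 0.717 FPKM (-1.53, SE 0.63), with overlap, and was not called under either scaling, at -1.39, nor without fresh replicate 1 or 3 or vitrified replicate 1 or 3, at -1.14 to -1.44. BTG4, which brings the deadenylase to maternal transcripts, was not called, at 690, 1140 and 1080 against 686, 727 and 131 FPKM. Of 35 genes of maternal mRNA decay, PABPN1L was the only call.

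Chromatin and pluripotency genes gave 3 further calls, on lists to be read beside the 3.46% called of all genes tested. TET1, which oxidises methylated cytosine, was at 1.29, 1.09 and 0.431 FPKM in fresh and at 1.67, 3.47 and 6.67 FPKM in vitrified libraries (1.25, SE 0.49), the only call among 14 genes of DNA methylation. SALL4, a zinc finger factor of pluripotent cells, was at 7.34, 10 and 9.65 against 17.2, 16.5 and 30.6 FPKM (1.12, SE 0.45), and with LIFR made up the 2 calls among 17 tested pluripotency genes. TET1 and SALL4 showed no overlap, with vitrified replicate 3 highest in both, and without it their changes were 0.86 and 0.84 and no longer called. TET1 was also lost without fresh replicate 2 or 3 or vitrified replicate 2, at 1.32, 1.04 and 1.25, and SALL4 without any 1 fresh library, at 0.99 to 1.19. LSM4, a subunit of the U6 small nuclear particle, was the only call of 49 spliceosome genes, at 21.7, 14.6 and 22.3 against 3.66, 11.9 and 10.7 FPKM (-1.18, SE 0.52). It was lost without any fresh library or vitrified replicate 1, at -0.72 to -1.37, and under both scalings, at -1.08 and -0.99. Among 28 genes of histone methylation, 41 of ribosome biogenesis and 38 of actin and the cytoskeleton 0 were called by limma, and 0 had an unadjusted p under 0.05. Among 43 genes of mitosis and the cell cycle 0 were called, and 1 had an unadjusted p under 0.05.

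Some of the genes that the study measured again by qRT-PCR or named as targets of long non-coding RNAs were read in the same way. The study took such targets only from mRNAs it had called differentially expressed with edgeR. ITPKA, RELCH, NDEL1 and DAPL1, not called below, were thus among its calls. It also reported that qRT-PCR matched its sequencing for the genes measured, among them LAMC3, TRIM35 and the DRAM2 described above. LAMC3, a laminin chain, was at 5.85, 1.04 and 1.72 FPKM in fresh and at 0.277, 0.243 and 0.255 FPKM in vitrified libraries (-1.42, SE 0.48), and was not called without fresh replicate 1, at -0.91. Its groups did not overlap, at levels of a few FPKM. ITPKA, which phosphorylates inositol trisphosphate, was at 2.43, 1.80 and 0.698 FPKM in fresh, listed at 0 in vitrified replicates 1 and 2 and at 2.22 FPKM in replicate 3, and was not called. RELCH, NDEL1 and DAPL1 had log2 fold changes of -0.69, -0.08 and -1.28 with overlapping groups and were not called. NDEL1 was nearly equal, at 16.1, 14.6 and 10.5 against 16.0, 13.9 and 9.25 FPKM. DAPL1, which is abundant in eggs, was at 230, 225 and 182 against 172, 215 and 16.9 FPKM, so that its difference lay in vitrified replicate 3 alone. TRIM35, a ubiquitin ligase, did not reach the level for testing, at 0.317 and 0.161 FPKM and listed at 0 in fresh, and listed at 0, at 1.63 and at 1.31 FPKM in vitrified libraries.

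Apart from the comparison of the groups, the 6 libraries were ordered by the genes that come on with genome activation. Libraries of the other stages defined the genes for this. Activation genes were under 1 FPKM in all 6 2-cell libraries and at 10 FPKM or more in all 6 blastocyst libraries, which 220 genes met, and maternal genes met the reverse, 369 in all. No 4-cell value entered their choice. Activation genes at 1 FPKM or more made up 25.0%, 16.8% and 39.5% of the 220 in fresh replicates 1, 2 and 3 and 24.1%, 13.2% and 48.2% in vitrified replicates 1, 2 and 3. Within each group the same order came from their mean log2(FPKM + 1), at 0.65, 0.52 and 1.10 in fresh and 0.65, 0.41 and 1.59 in vitrified libraries, against 0.23 to 0.33 in 2-cells and 5.29 to 5.6 in blastocysts. By both measures replicate 2 was the lowest and replicate 3 the highest of either group, and the groups overlapped, with fresh replicate 1 and vitrified replicate 1 nearly equal. By the median of the 220 genes fresh replicate 1 was instead the lowest, at 0.0342 FPKM against 0.203 FPKM in fresh replicate 2 and 0.0741 FPKM in vitrified replicate 2, and it listed 108 of them at 0, against 63 and 95 in these libraries.

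Maternal genes set vitrified replicate 3 further apart. Their mean log2(FPKM + 1) was 4.70, 4.84 and 4.67 in fresh libraries, 4.52 and 4.67 in vitrified replicates 1 and 2, and 2.98 in vitrified replicate 3. At 10 FPKM or more were 83.5%, 88.9% and 82.7% of the 369 in fresh libraries, 79.9% and 83.7% in vitrified replicates 1 and 2, and 33.1% in vitrified replicate 3, which held the lowest value for 337 of them (91.3%). It also held the highest value for 110 of the 220 activation genes (50%). Fresh replicate 3, the other library with many activation genes detected, had no such loss of maternal transcripts. Vitrified replicate 3 lay above all other 5 libraries by more than 1 on the log2 scale for 709 tested genes (8.09%) and below them for 1299 (14.8%), against 7 to 98 and 10 to 124 genes for the other libraries. It was thus the 4-cell library farthest from the 2-cells on both measures.

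**Figure D3:**
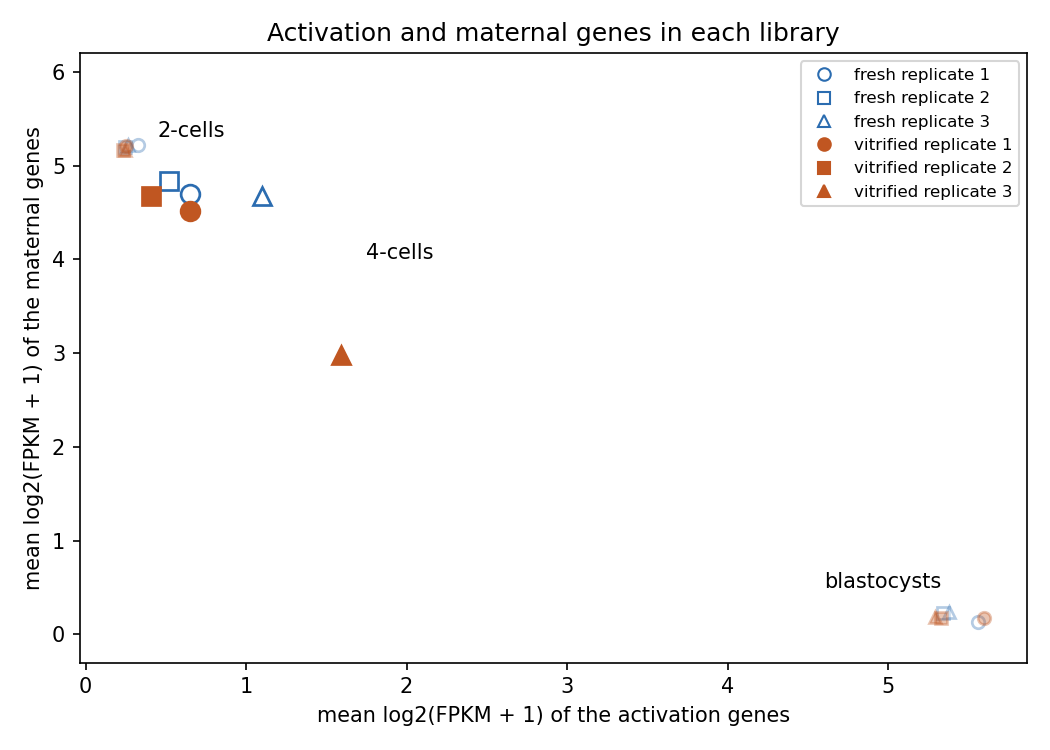
Mean log2(FPKM + 1) of the 220 activation genes (x axis) against that of the 369 maternal genes (y axis), 1 point per library, large for 4-cells and small and faint for 2-cells and blastocysts. Of the 4-cell libraries 5 lie near the 2-cells, fresh replicate 3 is shifted to the right at 1.10, and vitrified replicate 3 stands at 1.59 on the x axis and 2.98 on the y axis.

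Single activation genes showed the spread plainly. PDXK, which makes the active form of vitamin B6, was at 0.0403, 0.410 and 52.0 FPKM in fresh replicates 1, 2 and 3 and at 0.594, 0 as listed and 90.8 FPKM in vitrified ones. S100A14, a calcium-binding protein of epithelia, was listed at 0 in fresh replicates 1 and 2 and vitrified replicate 2, and was at 0.310 FPKM in vitrified replicate 1, but reached 40.6 FPKM in fresh and 54.5 FPKM in vitrified replicate 3. Both genes were therefore nearly off or strongly on, and on in replicate 3 of either group. BAD, a promoter of cell death in the BCL2 family, was at 5.54, 7.11 and 46.8 against 14.5, 1.80 and 138 FPKM. PGAM1, an enzyme of glycolysis, was at 4.90, 0.238 and 15.6 against 1.15, 1.67 and 75.9 FPKM, and SMIM1, a small membrane protein of red blood cells, was at 1.64, 0.210 and 16.2 against 4.03, 0 as listed and 80.7 FPKM. CD9, a tetraspanin of the egg and embryo surface, was at 2.50, 0.342 and 4.11 against 0.508, 0 as listed and 42.6 FPKM. The 2 libraries numbered 3 were the highest of their groups for all 6 genes, and none of the 4 that were tested was called. These 6 were chosen for the widest range over the 4-cell libraries, so they favour libraries with extreme values. Of the 52 activation genes tested, 1 was called higher and 0 lower, beside 0.992% and 2.46% of all genes. Their median was 0.13, beside -0.16 for all genes. Without vitrified replicate 3 it was 1 and 5, beside 114 and 256 of all 8769 genes. The median was then -0.75, beside -0.08 for all genes.

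Maternal genes with a wide range had several patterns. OOEP, a subunit of the maternal complex beneath the egg membrane, was at 497, 413 and 788 FPKM in fresh, at 330 and 438 FPKM in vitrified replicates 1 and 2 and at 39.8 FPKM in vitrified replicate 3. VWC2L was at 74.1, 57.9 and 37.1 against 40.9, 45.6 and 2.48 FPKM (-1.54, SE 0.91), not called without and called with the replicate block. REDIC1, a factor of meiotic crossovers, was at 44.3, 13.5 and 4.26 against 13.9, 8.01 and 1.19 FPKM (-1.19, SE 0.90), again called with the block alone. In these 3 genes vitrified replicate 3 was the lowest of all, and in VWC2L and REDIC1 the third replicate was also the lowest of the fresh libraries. XKR9 was at 3.72, 13.0 and 23.1 against 19.5 and 26.5 FPKM and 0 as listed. SPATA22, another meiotic gene, went the other way, at 1.96, 6.10 and 12.4 against 1.22, 5.20 and 40.5 FPKM, and C5orf34 followed neither pattern, at 0.431, 1.33 and 21.3 against 4.73, 24.9 and 3.67 FPKM. Of 368 maternal genes tested, 1 was called higher and 28 lower (7.61%, beside 2.46% of all genes), with a median of -0.68. Without vitrified replicate 3 these were 6 and 11, with a median of -0.16 beside -0.08 for all genes.

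Known factors of genome activation and early pluripotency followed the same libraries. KLF17, a Krüppel-like factor that human embryos express once their genome is active, was at 4.04, 0.312 and 12.5 FPKM in fresh and at 12.5, 0 as listed and 218 FPKM in vitrified replicates 1, 2 and 3. KLF4, of the same family, was at 2.32, 1.90 and 52.8 against 7.62, 0.607 and 125 FPKM. DPPA2, an activator of early embryonic genes in the mouse, was at 28.1, 13.7 and 70.8 against 15.8, 6.34 and 206 FPKM. These 3 factors ranked the libraries alike at the extremes, with vitrified replicate 2 lowest and vitrified replicate 3 highest. TFAP2C was at 33.4, 17.9 and 53.2 against 31.7, 4.32 and 175 FPKM, and EIF1AX, a translation initiation factor used as a sign of genome activation, at 18.2, 18.5 and 72.0 against 38.4, 12 and 196 FPKM. NR5A2, a nuclear receptor of the early embryo, was at 1.86, 0.744 and 5.3 against 1.23, 0.0159 and 22.6 FPKM, and the histone demethylase KDM5B at 0.770, 0.282 and 9.38 against 1.38, 0.139 and 11.6 FPKM. All 4 again had vitrified replicate 2 at the bottom and vitrified replicate 3 at the top, with fresh replicate 3 second.

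NANOG, a factor of pluripotency, was high in vitrified replicate 3 alone, at 289 FPKM against 8.97 to 29.9 FPKM in the other 5 libraries. MYC was at 26.7, 8.47 and 10.7 FPKM in fresh and at 37.1, 3.70 and 75.2 FPKM in vitrified libraries, so that both first replicates were above fresh replicate 3. Not all genes on the list varied this way. NFYC was at 9.97 to 14.7 FPKM in all 6 libraries, and POLR2A, the large subunit of RNA polymerase II, at 2.47 to 7.81 FPKM with fresh replicate 3 lowest. KDM6A and KDM6B, demethylases of histone H3, were lowest in vitrified replicate 3, at 1.43 and 1.04 FPKM. Of the 19 tested genes on this list 0 were called by limma and 0 had an unadjusted p under 0.05. The median of vitrified minus fresh was 0.25, and without vitrified replicate 3 it was -0.29.

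**Figure D4:**
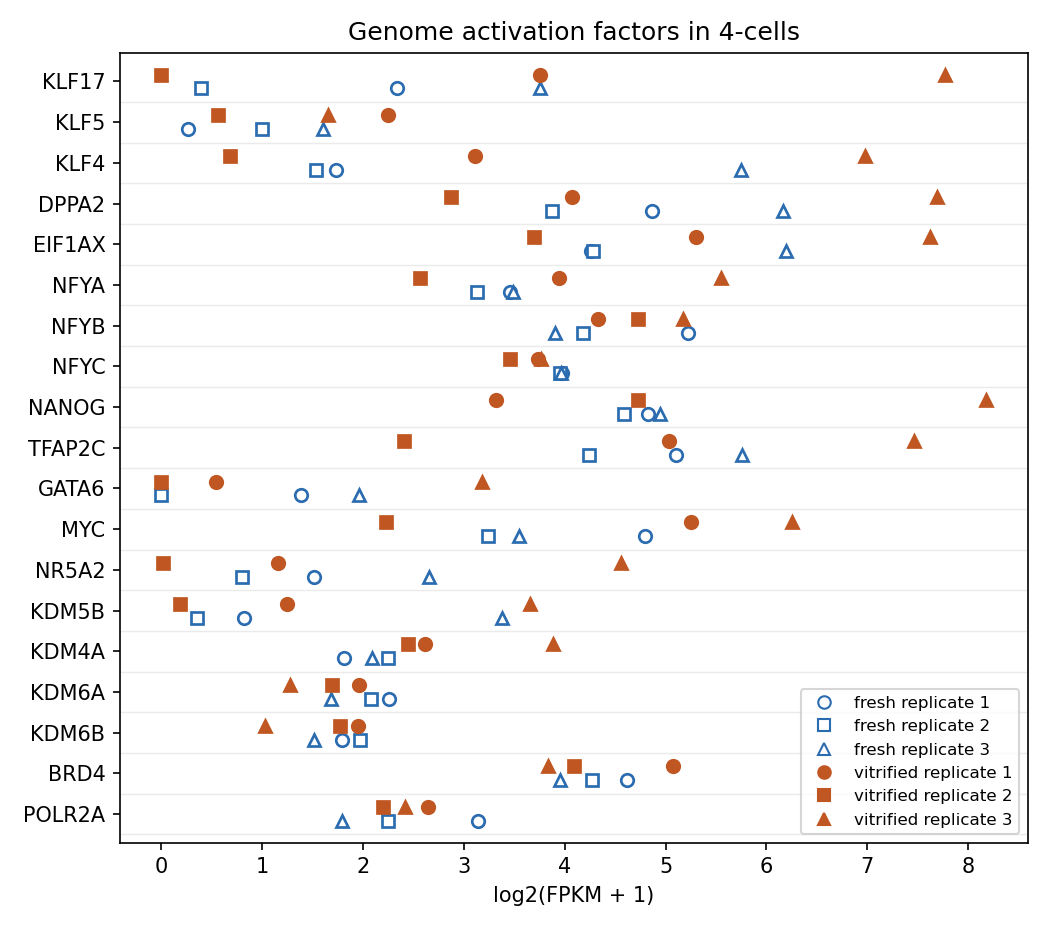
Expression in log2(FPKM + 1) of the 19 tested genes on the list of genome activation factors, 1 point per library, open blue for fresh and filled orange for vitrified 4-cells. For KLF17, KLF4, DPPA2, EIF1AX, TFAP2C, NR5A2 and KDM5B vitrified replicate 3 is highest and vitrified replicate 2 lowest, and the fresh points lie between them.

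The gap between vitrified replicate 3 and its group reached beyond these genes. Over the 19 genome activation factors, vitrified replicate 3 exceeded the mean of vitrified replicates 1 and 2 by a median of 2.51 on the log2 scale, beside -0.35 for all genes tested. For 41 genes of ribosome biogenesis the median was 1.25, with 24 genes (58.5%) more than 1 above, beside 20.9% of all genes. Fibrillarin (FBL), which methylates ribosomal RNA, was at 34.5, 15.3 and 70.6 FPKM in fresh and at 44.7, 3.67 and 229 FPKM in vitrified libraries, and POLR1C, a subunit of RNA polymerases I and III, at 3.62, 6 and 55.5 against 4.84, 3.42 and 115 FPKM. NPM1, an abundant nucleolar protein, went against this, at 718, 585 and 555 against 549, 556 and 207 FPKM. Genes of the mitochondrial inner membrane had a median of 0.97, with the import subunit TIMM50 at 14.4, 11.9 and 25.9 against 6.86, 6.09 and 254 FPKM. The spliceosome had one of 0.81, with the splicing factor SRSF7 at 10, 12 and 103 against 8.44, 21.9 and 736 FPKM and SRSF3 at 13.5, 16.1 and 118 against 23.5, 12.7 and 445 FPKM. In each of these genes but NPM1 both replicates numbered 3 were the highest of their groups. FBL, POLR1C, NPM1, TIMM50, SRSF7, SRSF3 and the activation factors other than KLF17 were picked for their values.

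On the other side lay the oocyte-specific genes, with a median of -1.06 and 13 of 24 more than 1 below the mean of the other vitrified libraries (54.2%, beside 29.2% of all genes), and lipid droplets and fatty acid oxidation with 11 of 23 below (47.8%). BTG4 and OOSP2, an egg protein, at 55.2 FPKM in vitrified replicate 3 against 340 to 1000 FPKM in the other libraries, belong here. Not every oocyte gene took part. BMP15, a growth factor of the oocyte, was at 520, 512 and 269 FPKM in fresh and at 477, 354 and 462 FPKM in vitrified libraries, and KPNA7, the egg's importin, at 425, 435 and 280 against 730, 581 and 574 FPKM. In fresh 4-cells, replicate 3 exceeded replicates 1 and 2 by a median of 0.24 for the activation factors, 0.52 for ribosome biogenesis and 0.54 for the mitochondrial inner membrane, beside 0.01 for all genes. With replicates 1 and 2 alone, and with the lists of markers of other cell types left out, the medians of vitrified minus fresh lay between -0.44 for pluripotency factors and 0.29 for DNA methylation and TET enzymes, beside -0.07 for all genes.

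**Figure D5:**
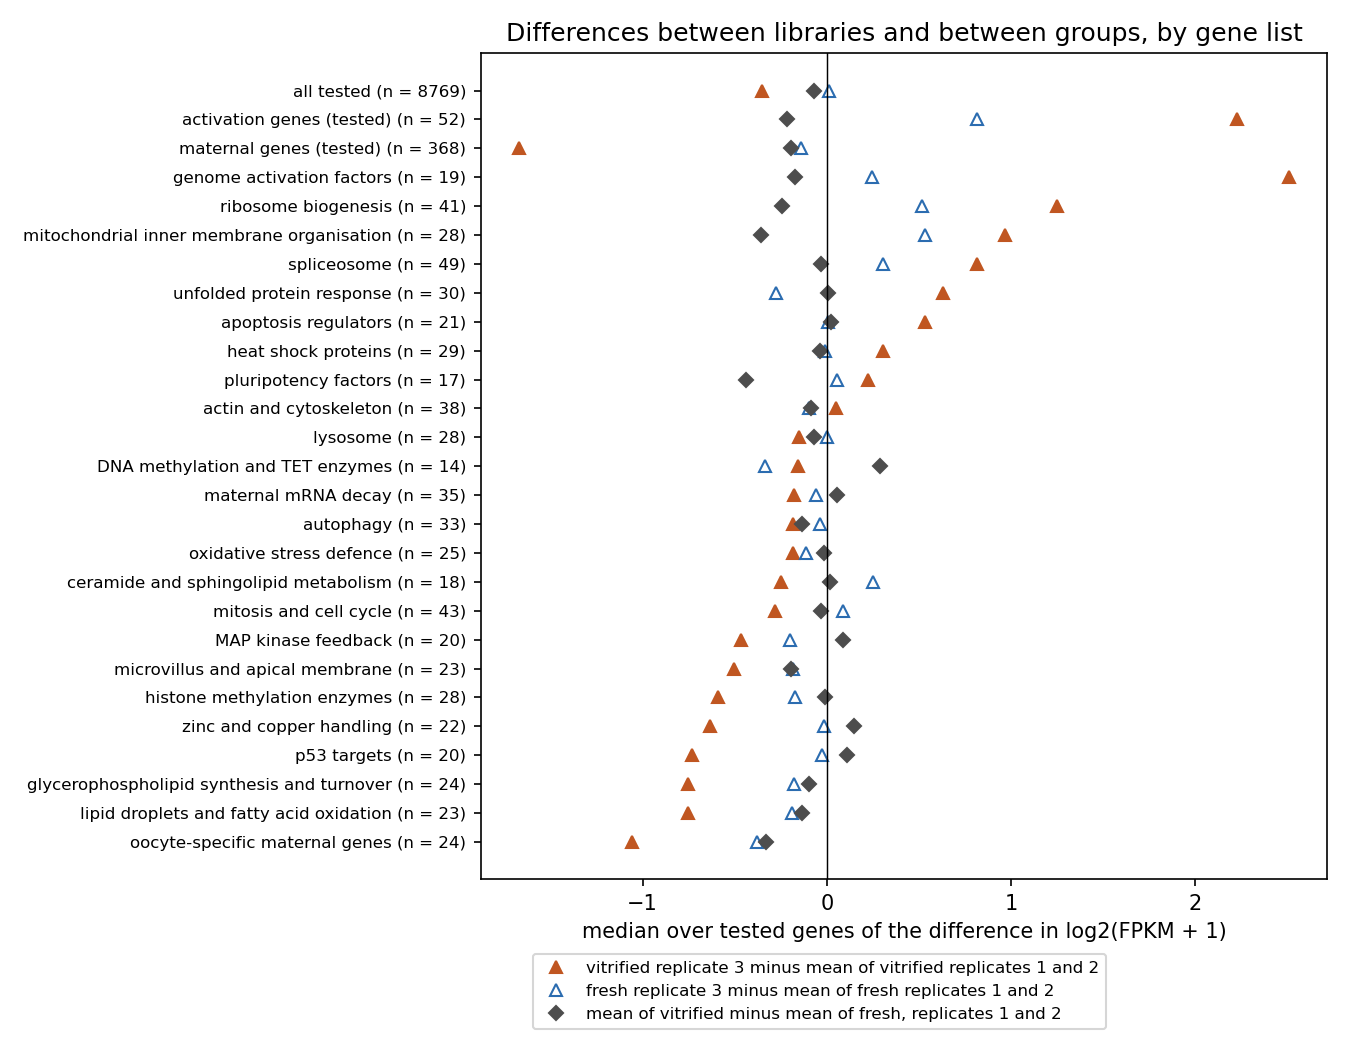
Median over the tested genes of each list, markers of other cell types left out, of the difference in log2(FPKM + 1) between vitrified replicate 3 and the mean of vitrified replicates 1 and 2 (filled triangles), between fresh replicate 3 and the mean of fresh replicates 1 and 2 (open triangles), and between the group means of replicates 1 and 2 (diamonds). The filled triangles run from 2.51 for the activation factors to -1.67 for the maternal genes, while the diamonds stay between -0.44 and 0.29.

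The place of vitrified replicate 3 was also counted among the called genes. Among the 216 genes called lower, vitrified replicate 3 was the lowest of the vitrified libraries for 150 (69.4%), beside 51.3% of all genes tested, and among the 87 called higher it was the highest for 45 (51.7%), beside 33.6%. Among the 44 lower genes called in each of the 6 fits it was the lowest for 20 (45.5%), and among the 14 higher ones the highest for 8 (57.1%). Of the 216 and 87, 28 and 1 were maternal genes, and of the 44 and 14, 3 and 0. Without vitrified replicate 3, 114 genes were called higher and 256 lower, and 151 of the 303 were among them, so that 50 of the 87 and 101 of the 216 kept their call. With the mean level of the activation genes as a covariate 130 were higher and 332 lower, 279 of them among the 303, and with it all 58 genes called in each of the 6 fits were called. The 58 had been chosen for keeping their calls in these same 6 libraries, also without vitrified replicate 3. Their calls with the covariate are therefore no separate support. SPRY2, GM2A, SIMC1, CCS, ZNF583, CDK5, C1orf105, LITAF, AFF2, APOOL and SLC39A8 were among these 58.

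To see whether the difference in 4-cells was shared by the other stages, it was compared with the mean of the differences in 2-cells and blastocysts in a fit over all 18 libraries. Of 11361 genes tested, 821 (7.23%) passed the thresholds on this contrast, 229 with the 4-cell difference higher (2.02%) and 592 with it lower (5.21%), and 4 (0.0352%) had an adjusted p under 0.05 (limma). Among the latter, XPNPEP3 had a difference of -1.94 in 4-cells, 0.64 in 2-cells and -0.16 in blastocysts (adjusted p = 0.0277 for the contrast, limma). C1orf105 had -1.97 in 4-cells and 0.56 in 2-cells (adjusted p = 0.0169, limma). It was listed at 0 in all blastocyst libraries, fresh and vitrified, which add no spread to its test. Some of the largest contrasts did not reach that level. ZNF583 was at -2.05 in 4-cells, 0.51 in 2-cells and 0.40 in blastocysts (adjusted p = 0.064, limma), and APOOL at -1.88, 0.04 and 1.13 (adjusted p = 0.064, limma). TMIGD1 was at -1.99 in 4-cells and 0.82 in 2-cells (adjusted p = 0.0514, limma). The mean difference of each of these 5 genes was below 0 in 4-cells and above 0 in 2-cells, though for APOOL only by 0.04. The genes were chosen for large contrasts, and the contrast subtracts the 2-cell difference. The choice thus favours such opposite signs, and they are no separate result. This fit takes 1 spread per gene from all stages, although the spread of the 4-cell libraries differs from that of the others. In such a fit the 4-cell difference itself had an adjusted p under 0.05 in 37 genes, against 1 gene with the 4-cell libraries alone (limma).

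VIT, SRGN and CCDC85A also had wide contrasts, with less even libraries. VIT, which encodes vitrin, was at 14.2, 17.6 and 19.6 FPKM in fresh and at 14.5, 0.826 and 1.25 FPKM in vitrified 4-cells (-2.17, SE 0.77). SRGN, serglycin, the proteoglycan of storage granules, was at 6.35, 8.36 and 37.1 against 1.63, 7.04 and 0.118 FPKM (-2.26, SE 0.83). CCDC85A was at 19.0, 0.0471 and 0.448 against 25.1, 24.6 and 6.75 FPKM (2.47, SE 1.04). In all 3 genes 1 library fell on the other group's side, and the adjusted p of the contrast was 0.286, 0.248 and 0.314 (limma). Their calls in 4-cells rested on few libraries. VIT was not called without vitrified replicate 2 or 3, at -1.60 and -1.75, SRGN without fresh replicate 3 or vitrified replicate 1 or 3, at -1.53, -2.20 and -1.58, and CCDC85A without fresh replicate 2 or 3 or vitrified replicate 1 or 2, at 1.69 to 2.19.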

How the data were processed

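Libraries were cDNA libraries from pooled embryos, amplified with a SMART-Seq kit according to the study, whereas the sample labels describe a small RNA protocol. Per the labels and the study, cutadapt (trimming), FastQC (quality), Bowtie2 with HISAT2 (mapping) and StringTie (assembly and abundance) were used. The authors deposited FPKM values per gene and library. Versions, genome build and annotation are not given in the sources used here, so no coordinates are given. The deposited table also holds the authors' fold changes, p-values and q-values, which were not used. Depth per library cannot be had from FPKM, and the data quality and mapping statistics that the study reports were not used. The replicate spread alone therefore gives the precision here. Of 24358 genes, 6907 had no symbol in the files and 951 of these were given one by a reference table.

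Genes with at least 1 FPKM in 3 or more of the 6 4-cell libraries were tested on log2(FPKM + 1) with limma 3.58.1 in R 4.3.3 (trend option). Same-numbered fresh and vitrified libraries correlated at 0.22, 0.37 and 0.42 after group means were removed, and those of different numbers at up to 0.23. For number 1 the match was thus no closer than between numbers. A fit blocked on the replicate number is reported wherever it alters a call. No source states what a number shares. Alternatives were a pseudocount of 0.1, no filter, a mean of 5 FPKM, quantile and median ratio scaling, the block, library weights, robust variances, all 18 libraries in 1 fit, the activation mean as covariate, and each library left out. Leaving out replicate 3 of both groups was chosen after seeing the data.

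Genes were named by a rule: the 12 largest increases and 12 largest decreases among called genes with a symbol and no overlap of groups, any adjusted p under 0.05, up to 3 called genes of each list, the 6 widest-ranging activation and maternal genes each, the 6 largest contrasts between stages, KLF17 and the genes the study measured by qRT-PCR or named as targets of long non-coding RNAs. Small RNA family names did not count as symbols, which was decided after seeing them. The members and lists were chosen with earlier results of these data known. A gene that the rule takes is not reported here.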

Additional observations from a re-analysis of the deposited data

Results flagged for a closer look

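The difference between vitrified and fresh libraries in 4-cells departed from the mean of the differences in 2-cells and blastocysts, at an adjusted p under 0.05 (limma, interaction contrast over 18 libraries), for 4 genes. The contrast was -2.25 for C1orf105 (adjusted p = 0.0169), -2.18 for XPNPEP3 (adjusted p = 0.0277) and -2.25 for LYPD6B (adjusted p = 0.039). For ENSSSCG00000036186, described as gamma-crystallin F, it was 5.89 (adjusted p = 0.0277), a size that depends on the pseudocount since all 3 fresh 4-cell libraries were listed at 0. LYPD6B was listed at 0 in all 3 vitrified 4-cell libraries, and its differences were 0.12 in 2-cells and 1.04 in blastocysts. The number of genes at that level was 2 with quantile normalization, with median ratio scaling and with the replicate block. It ranged from 2 to 356 with 1 4-cell library left out. The fit pools the spread of all stages, which differs between them. Whether anything technical had a part in these 4 contrasts was not tested.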

How the results depend on the processing

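FPKM without counts, 3 libraries of 2 embryos a group and the spread among them limit every call. The 303 calls became 146 at a mean of at least 5 FPKM, 486 with the replicate block (148 higher and 338 lower), 641 with library weights, 634 with all 18 libraries in 1 fit, 462 with the activation covariate and 171 to 739 with 1 library left out. The block ended the calls of BCL2L12 and CDS1, added VWC2L and REDIC1 and changed no other call among the genes named by the rule. The 977 genes without overlap, of 8769, became 1474 of 17672 with no filter and 593 of 5150 at a mean of 5 FPKM. They became 1394 to 2397 with 1 library left out and 3085 without replicate 3 of both groups. Fewer libraries separate more easily where groups do not differ, so a rise with libraries left out is built into this count. The 821 stage contrasts became 742 to 1812 with 1 library left out, 1240 without vitrified replicate 1 and 1812 without vitrified replicate 2. With 5 FPKM as the level of detection, activation genes detected were 6.36%, 2.73% and 12.7% in fresh and 5.45%, 1.36% and 27.3% in vitrified libraries, in the same order, and maternal genes 94.9% and 98.9% in fresh replicates 1 and 3 and 96.2%, 97.8% and 56.6% in vitrified libraries. Defining the genes at 5 FPKM gave 90.2% for maternal genes in vitrified replicate 3, where it was 96.5%. Differences that were not called turned sign in 8 genes. Leaving out 1 library gave ranges of -0.76 to 2.41 for SMIM1, -1.04 to 1.54 for PGAM1, -1.05 to 1.77 for BAD, -1.23 to 1.49 for CD9, -1.37 to 1.03 for XKR9, -0.82 to 1.29 for SPATA22, -0.25 to 0.13 for NDEL1 and -0.29 to 3.60 for KLF17. Without replicate 3 of both groups the values were -0.17 for PGAM1, -0.14 for BAD, -0.82 for CD9, 1.55 for XKR9 and -0.31 for SPATA22. The covariate gave -0.16 for BAD, -0.077 for CD9 and -0.021 for SPATA22, library weights -0.28 for CD9, 0.53 for XKR9, -1.12 for SPATA22 and 0.11 for NDEL1, a pseudocount of 0.1 -0.30 for CD9, and the 2 scalings 0.056 and 0.11 for NDEL1. Of 57 named calls, leaving out 1 library ended 9 to 24. The losses given gene by gene above are not complete for the other settings. Library weights ended 12, those of PRR13, PRDX5, ANKS4B, DUSP5, LIFR, LYPLA1, DDIT3, BCL2L12, TET1, SALL4, OMA1 and VIT. The fit with no filter ended 7, those of PEX16, FIGLA, PLAC8, PLA2G12A, BCL2L12, TET1 and CCDC85A. Each scaling ended 4, and a pseudocount of 0.1 and a mean of 5 FPKM ended 3 each. The causes were not tested.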
